A study of Arabidopsis thaliana with 24 samples.

Results

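The 10 genes described here are transcripts of sugar starvation and of the breakdown of branched-chain amino acids in Arabidopsis thaliana leaves, taken by locus identifier from a deposited count table of 33610 gene identifiers. They are ASN1 (AT3G47340), DIN10 (AT5G20250), SEN1 (AT4G35770), BGLU30 (AT3G60140), DIN4 (AT3G13450), MCCA (AT1G03090), IVD (AT3G45300), BCAT2 (AT1G10070), AKINBETA1 (AT5G21170) and TPS8 (AT1G70290). Of the 10, 9 passed the filter on low counts. BGLU30, a beta-glucosidase known as a dark-induced gene, was at the table's lowest value of 1 in all 24 libraries and was not detectable at this depth.

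When a leaf runs short of sugar in the dark, the kinase complex SnRK1 is active and turns on genes that save or recover carbon, while trehalose 6-phosphate, a signal of sucrose, holds it back. Among the genes it turns on are the dark-inducible (DIN) genes, asparagine synthetase, and enzymes that break down leucine, isoleucine and valine in the mitochondrion. In that pathway an aminotransferase removes the amino group and the branched-chain keto acid dehydrogenase complex makes the acyl-CoA. Isovaleryl-CoA dehydrogenase and methylcrotonyl-CoA carboxylase then continue the route of leucine, and the former feeds electrons to respiration.

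The study grew 2 ecotypes, Castelnuovo-12 from Italy (IT, sub-line 24) and Rodasen-47 from Sweden (SW, sub-line 29), each in 4 regimes of light and temperature with a 9 h photoperiod. LLW combined 100 µmol photons per m2 and s with a leaf temperature of 25 °C by day and 20 °C by night, and LLC the same light with 16 °C and 12.5 °C. HLW had 1000 µmol photons per m2 and s at 25 °C and 20 °C, and HLC had 1000 at 14 °C and 12.5 °C. Each group is named by label and regime (IT_LLW and so on) and held 3 libraries, made from ribosome-depleted RNA of 2 leaf discs of 0.73 cm2, taken from the youngest fully developed leaf at the end of a 15 h night. The labels call the replicates biological but do not say whether they came from separate plants or growth runs, and p-values reflect how these samples scatter.

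Library totals ran from 10967425 to 17467653 counts, and plastid transcripts took 54.84% to 67.99% of them. The libraries did not divide by ecotype label. With replicate 3 of IT_HLC set aside, 110 transcripts were either at 10 or more counts in every library of a group or at 2 or fewer in every one. Of these, 63 were on in SW_LLW, IT_LLC, SW_LLC and IT_HLC alone (the first set), and 31 were on in SW_HLC, SW_HLW, IT_HLW and IT_LLW alone (the second set). Replicate 3 of IT_HLC carried both, at 59.2% of the first-set level and 32.2% of the second-set level, where the other first-set libraries held 0.877% to 1.68% of the latter. Library codes add another division, since letters mark all LLW and HLC libraries and numbers all LLC and HLW libraries. A comparison of SW with IT in LLW or in HLC, and of HLC with LLW within a label, therefore coincides with a change of set, whereas SW with IT in LLC or HLW does not. Tests that rest on IT_HLC are given with and without its replicate 3, and the group means of IT_HLC include it unless stated.

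Leaf markers were present in every library. The summed level of 2 mesophyll markers (RBCS1A and CAB2) ran from 2556 to 10809 counts-per-million (CPM), lowest in IT_HLC at 2556 to 7183. Markers of other leaf cell types moved too. The 3 phloem markers summed to 96.1 to 153.8 CPM in IT_LLW and 39.4 to 53.3 CPM in IT_HLC, against 75.5 to 83.0 CPM in SW_LLW and 96.6 to 132.4 CPM in SW_HLC. The 3 xylem markers summed to 0.698 to 1.91 CPM in the 6 HLC libraries and 2.16 to 12.2 CPM elsewhere. Their lowest group means were 0.243 (XCP1), 0.313 (XCP2) and 0.351 CPM (IRX3), close to the lower limit of counting. The 3 epidermis markers ran from 57.1 to 233.3 CPM and the 4 guard cell markers from 5.10 to 12.6 CPM. No marker of the 5 lists was undetected, and the part of cell type shares in the results below was not tested. In whole leaf discs, fewer cells of a type and less RNA per cell cannot be told apart.

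Across the 8 groups all 9 tested genes differed, in a table where 87.9% of the 17709 genes tested did so at an adjusted p below 0.05. IT_LLW held the highest mean of 7 of the 9 genes. The exceptions were IVD, whose mean in IT_HLW was slightly higher, and BCAT2, which was highest in IT_HLC. IT_HLC held the lowest mean of 5 genes, namely DIN10, SEN1, DIN4, AKINBETA1 and TPS8. The ratio of the highest to the lowest group mean was 224 for ASN1, 97.1 for DIN10, 75.8 for SEN1 and 56.8 for BCAT2, and it was 3.04 for IVD and 3.66 for TPS8. Levels are TMM-normalised CPM, which compare libraries for 1 gene and do not rank genes against each other, because they are not divided by transcript length.

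**Figure D1:**
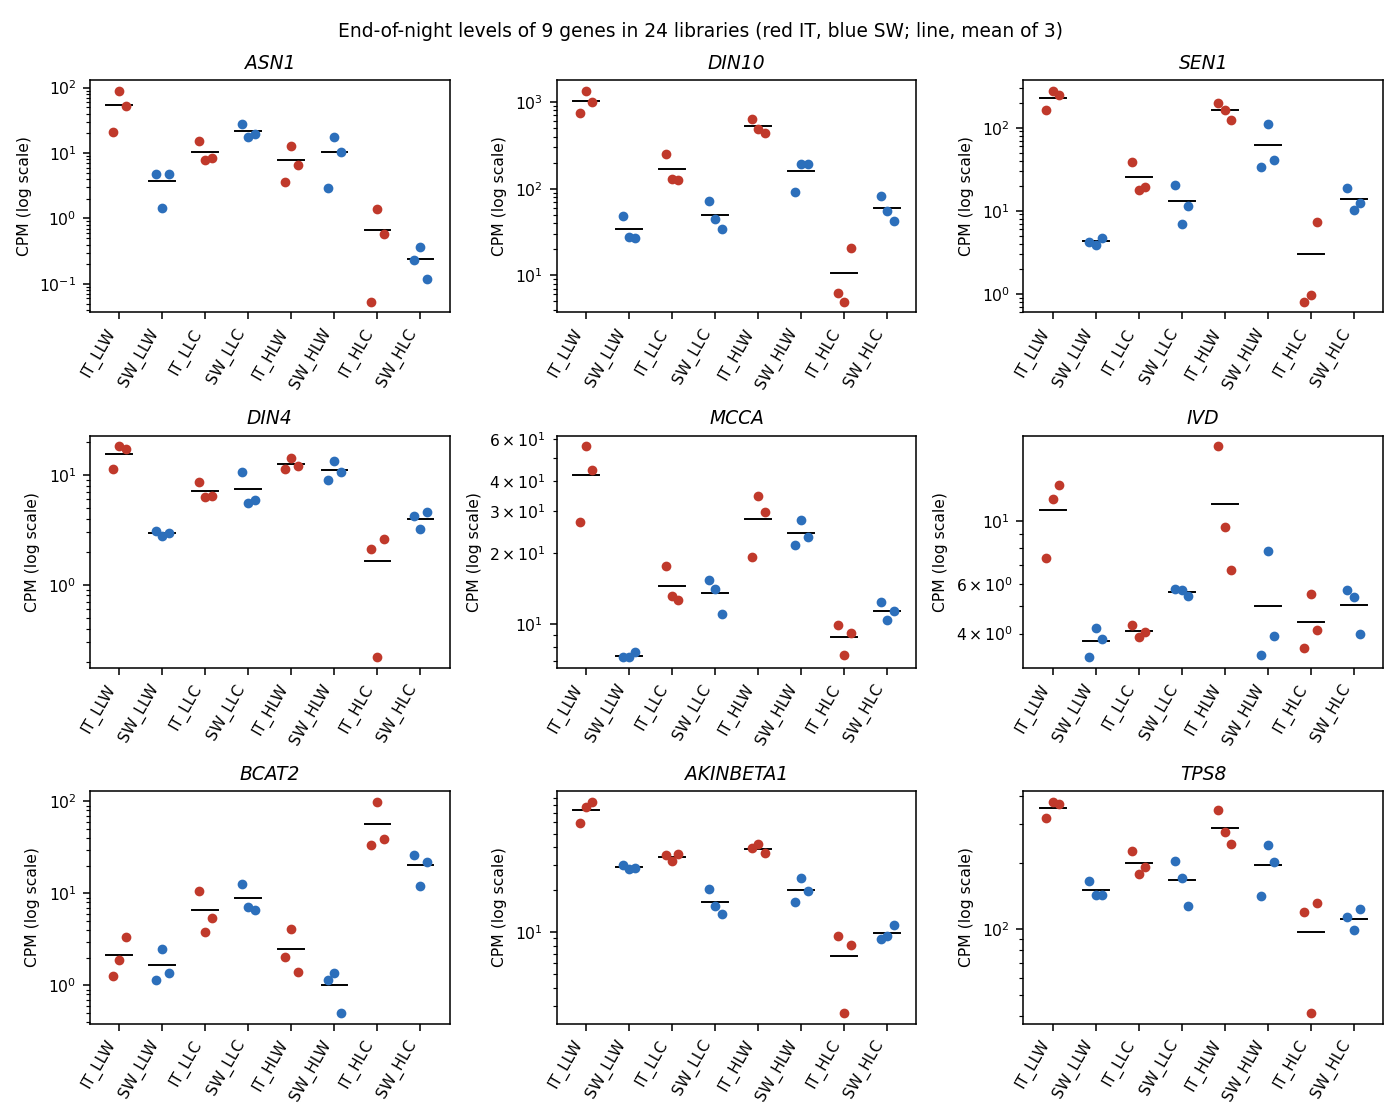
End-of-night levels of 9 genes, one panel per gene, with the 8 groups on the horizontal axis and CPM on a log scale on the vertical axis; each point is 1 library, red for IT and blue for SW, and the line is the mean of 3. The panels of DIN10 and SEN1 share a shape with IT_LLW highest and IT_HLC lowest, while BCAT2 is highest in IT_HLC.

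ASN1 encodes the dark-inducible glutamine-dependent asparagine synthetase, which stores nitrogen in asparagine when carbon is short. It was highest in IT_LLW, at 21.0, 89.3 and 51.5 CPM in replicates 1 to 3, and next in SW_LLC, at 28.2, 17.3 and 19.8 CPM, and these groups overlapped. In the middle lay IT_LLC (15.1, 7.81 and 8.42 CPM), SW_HLW (2.94, 17.8 and 10.3 CPM) and IT_HLW (3.62, 13.0 and 6.48 CPM), each overlapping the others. SW_LLW stood at 4.82, 1.46 and 4.86 CPM and overlapped the HLW groups. Both HLC groups were close to the lower limit of counting. IT_HLC held 0.0532, 1.40 and 0.577 CPM, from 1, 32 and 8 counts, and SW_HLC held 0.232, 0.369 and 0.121 CPM, from 4, 6 and 2 counts. The 6 HLC libraries were below all 18 others.

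DIN10 encodes a protein of the raffinose synthase family, and its transcript is induced by darkness. The 3 IT_LLW libraries held 748, 1349 and 1002 CPM, and the 3 IT_HLW libraries followed at 636, 489.6 and 443 CPM. None of these overlapped a library of another group. IT_LLC stood at 249, 129 and 124 CPM and SW_HLW at 90.8, 195 and 191 CPM, and these 2 groups overlapped. The low SW groups were SW_HLC at 82.1, 55.2 and 42.2 CPM, SW_LLC at 71.1, 45.1 and 34.6 CPM, and SW_LLW at 48.9, 27.5 and 26.8 CPM, which form an overlapping chain. IT_HLC was below all of them, at 6.28, 4.93 and 20.7 CPM, and the highest of these is its replicate 3, the library that carried both transcript sets.

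SEN1, also named DIN1, is a marker of dark treatment and senescence. It stood at 163, 278 and 249.5 CPM in IT_LLW and at 200.4, 162 and 123 CPM in IT_HLW, and these 6 libraries were above the other 18. SW_HLW held 33.9, 109.6 and 40.4 CPM, IT_LLC 38.5, 17.9 and 19.3 CPM, SW_HLC 18.9, 10.1 and 12.2 CPM, and SW_LLC 20.5, 6.96 and 11.4 CPM. Low-light, warm leaves under the SW label were among the lowest, at 4.25, 3.88 and 4.74 CPM. IT_HLC held 0.798, 0.960 and 7.35 CPM, so here too replicate 3 was the highest of the group, and without it the other 2 libraries were below every other library. Over 24 libraries DIN10 and SEN1 followed each other with a Pearson r of 0.97, a description over libraries that share their groups.

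The enzymes of branched-chain amino acid breakdown other than the aminotransferase spanned a smaller range. DIN4 and MCCA kept a similar order of groups, and IVD did so less closely. Over the 8 group means, the Pearson r with SEN1 was 0.94 for DIN4, 0.96 for MCCA and 0.81 for IVD. DIN4 encodes an E1 beta subunit of the branched-chain keto acid dehydrogenase complex, the committed step of the pathway. It was at 11.3, 18.2 and 17.4 CPM in IT_LLW, 11.3, 14.3 and 12 CPM in IT_HLW, and 9.09, 13.3 and 10.6 CPM in SW_HLW. The LLC groups stood lower, SW_LLC at 10.7, 5.58 and 5.95 CPM and IT_LLC at 8.58, 6.34 and 6.44 CPM. SW_HLC held 4.24, 3.19 and 4.60 CPM, SW_LLW 3.11, 2.80 and 2.94 CPM, and IT_HLC 2.13, 0.218 and 2.60 CPM, with no overlap among these 3 groups or with any group above them.

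MCCA encodes the biotin-carrying subunit of methylcrotonyl-CoA carboxylase, in the route of leucine. It was highest in 3 warm groups, at 26.8, 56.0 and 44.6 CPM in IT_LLW, 19.1, 34.6 and 29.7 CPM in IT_HLW, and 21.5, 27.4 and 23.3 CPM in SW_HLW. The fourth warm group, SW_LLW, had the lowest mean of all, at 7.29, 7.25 and 7.62 CPM. Between these lay the means of IT_LLC at 14.5 ± 2.70 CPM, SW_LLC at 13.5 ± 2.23 CPM, SW_HLC at 11.4 ± 0.959 CPM and IT_HLC at 8.84 ± 1.25 CPM (SD, n = 3). Replicate 2 of IT_HLC was at 7.46 CPM, so IT_HLC overlapped SW_LLW. The 9 libraries of the first 3 groups were above all the others.

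IVD encodes isovaleryl-CoA dehydrogenase, which passes electrons from leucine breakdown to the respiratory chain. It spanned the smallest range of the 9 genes. IT_HLW held 18.3, 9.47 and 6.71 CPM and IT_LLW 7.42, 11.9 and 13.4 CPM, and these groups overlapped. In the other 6 groups the 18 libraries lay between 3.30 and 7.80 CPM, the lowest mean being that of SW_LLW at 3.78 ± 0.454 CPM (SD, n = 3).

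BCAT2 encodes a branched-chain aminotransferase that has been placed in the chloroplast, where the reaction can run in either direction. Its order of groups was unlike that of the other 8 genes. IT_HLC held 33.6, 98.5 and 38.9 CPM and was above every other group, and SW_HLC held 26.2, 12.2 and 22.0 CPM. SW_LLC stood at 12.8, 7.17 and 6.61 CPM and IT_LLC at 10.6, 3.76 and 5.45 CPM, so the cool groups of low light came next, and replicate 1 of SW_LLC was above replicate 2 of SW_HLC. The 12 warm libraries lay between 0.50 and 4.14 CPM, with SW_HLW lowest at 1.15, 1.36 and 0.50 CPM. Among the 36 pairs that the 9 genes form, 25 had a Pearson r above 0.5 over the 24 libraries and 8 had one below 0, all of them pairs with BCAT2.

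AKINBETA1 encodes a regulatory beta subunit of SnRK1, and its groups were well separated. IT_LLW held 59.4, 76.8 and 83.6 CPM, IT_HLW 39.1, 41.9 and 36.2 CPM, IT_LLC 35.0, 32.1 and 35.6 CPM, and SW_LLW 30.1, 28.0 and 28.4 CPM, with no overlap among the 4 groups. SW_HLW at 16.4, 24.0 and 19.4 CPM overlapped SW_LLC at 20.1, 15.4 and 13.5 CPM. The HLC groups were lowest, SW_HLC at 8.88, 9.40 and 11.2 CPM and IT_HLC at 9.31, 2.66 and 8.15 CPM, which overlapped each other, and their 6 libraries were below the other 18.

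TPS8 encodes a class II trehalose phosphate synthase, a family whose transcripts respond to sugar and starvation. It stood at 319, 377 and 369 CPM in IT_LLW and 346, 276 and 244 CPM in IT_HLW. SW_HLW held 141, 241 and 200.4 CPM, and IT_LLC, SW_LLC and SW_LLW had means of 199, 167 and 150.0 CPM. Each of these 4 groups overlapped the next in the order, and none reached IT_HLW. The lowest means were those of SW_HLC at 111 ± 12 CPM and IT_HLC at 97.1 ± 48.5 CPM (SD, n = 3), where replicate 2 of IT_HLC was at 41.4 CPM. The HLC groups overlapped each other. Among their 6 libraries, replicate 3 of IT_HLC at 130.4 CPM was the only one above the lowest library of the other groups, SW_LLC at 126 CPM.

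From LLW to HLC, the change of both light and temperature at once, BCAT2 rose and 7 of the 9 genes fell in the mean of both labels. ASN1 fell most, with a log2 fold change of -5.06 ± 0.62 (SE, adjusted p = 1.26e-06 in edgeR's quasi-likelihood test, used throughout), or 33.4-fold lower. DIN10 fell by 2.91 ± 0.35 (adjusted p = 7.61e-07), AKINBETA1 fell by 2.51 ± 0.20 (2.99e-09) and SEN1 fell by 2.32 ± 0.45 (0.000228) on the log2 scale. The log2 fold changes of DIN4 (-1.44 ± 0.30), TPS8 (-1.15 ± 0.21) and MCCA (-0.82 ± 0.16) were smaller. BCAT2 rose by 4.16 ± 0.39 (adjusted p = 2.94e-08), or 17.8-fold. IVD was not called, at -0.44 ± 0.23 (adjusted p = 0.106). Of all genes tested, 55.8% were called in this comparison, 28.5% higher and 27.3% lower. Without replicate 3 of IT_HLC the counts were again 1 higher and 7 lower, SEN1 was at -3.16 and DIN10 at -3.36.

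The mean covers unlike changes under the 2 labels. In IT all 9 genes were called, 1 higher and 8 lower, where 54.7% of all genes were called (28.6% higher, 26.0% lower). DIN10 fell 98.3-fold (-6.62 ± 0.58), SEN1 80.2-fold (-6.33 ± 0.73) and ASN1 74.4-fold (-6.22 ± 0.80). AKINBETA1 fell 11-fold, DIN4 9.96-fold, MCCA 4.81-fold, TPS8 3.66-fold and IVD 2.45-fold, and BCAT2 rose 26.4-fold (4.72 ± 0.55). Without replicate 3 all 9 remained called, and SEN1 fell by 8.01 ± 0.72 and DIN10 by 7.53 ± 0.58 on the log2 scale.

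In SW 5 genes were called, 3 higher and 2 lower, where 50.3% of all genes were called (24.8% higher, 25.5% lower). ASN1 fell by 3.91 ± 1.02 (adjusted p = 0.00353) and AKINBETA1 by 1.55 ± 0.28 (0.000106) on the log2 scale, and BCAT2 rose by 3.59 ± 0.54 (2.09e-05). SEN1 rose by 1.68 ± 0.63 (adjusted p = 0.0318) and MCCA by 0.62 ± 0.23 (0.0323). Both of these calls were lost when any 1 of the 3 SW_LLW libraries or replicate 1 of SW_HLC was left out, with adjusted p from 0.0659 to 0.111 for SEN1 and from 0.0627 to 0.0900 for MCCA, and that of MCCA also without replicate 3 of SW_HLC (0.0606). DIN10 (0.80 ± 0.46), DIN4 (0.44 ± 0.42), IVD (0.41 ± 0.33) and TPS8 (-0.43 ± 0.29) were not called. Fitted on these 2 groups alone, TPS8 was called lower (-0.41, adjusted p = 0.0304).

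The difference between these changes, SW minus IT, was called for 7 of the 9 genes, all higher, where 37.1% of all genes were called (18.7% higher, 18.4% lower). It was 8.01 ± 0.95 for SEN1 (adjusted p = 2.3e-06), 7.42 ± 0.72 for DIN10 (1.56e-07) and 3.76 ± 0.60 for DIN4 (7.45e-05) on the log2 scale. For MCCA it was 2.89 ± 0.33, for AKINBETA1 1.91 ± 0.39, for IVD 1.71 ± 0.46 and for TPS8 1.44 ± 0.41. ASN1 (2.31 ± 1.64, adjusted p = 0.285) and BCAT2 (-1.13 ± 0.76, adjusted p = 0.254) did not pass. The same 7 genes were called without replicate 3 of IT_HLC, with SEN1 at 9.69 and DIN10 at 8.33. Because the transcript sets change between LLW and HLC in opposite directions under the 2 labels, this difference cannot be told apart from one between the sets.

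**Figure D2:**
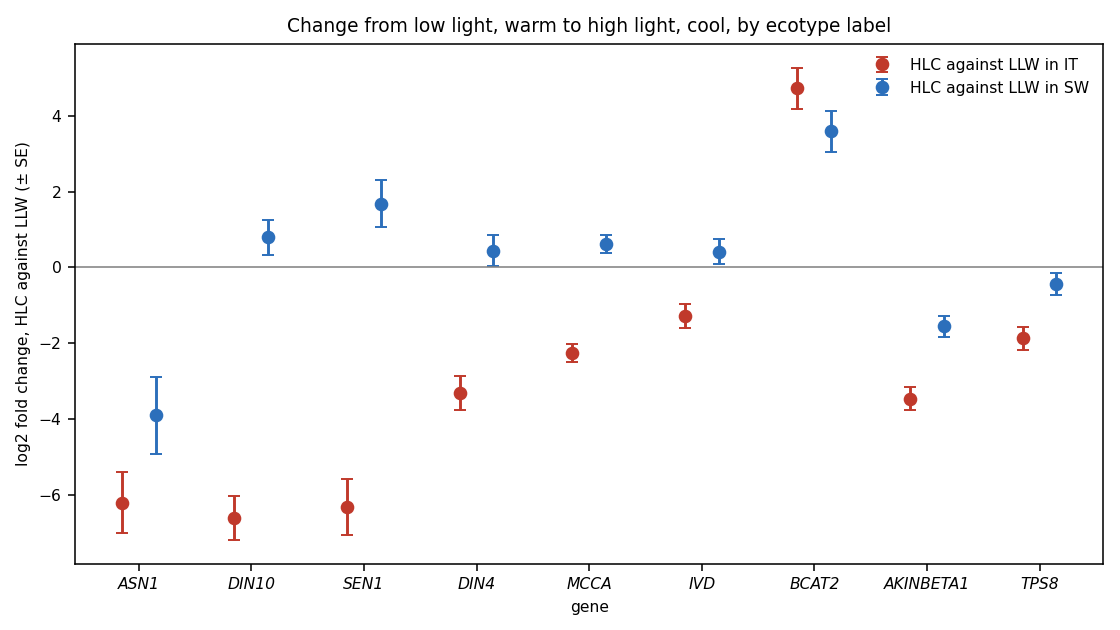
Log2 fold change of HLC against LLW for each gene, IT in red and SW in blue, with bars of 1 SE from the fit on 24 libraries. ASN1, AKINBETA1 and BCAT2 were called in the same direction under both labels, while SEN1 and MCCA were called lower in IT and higher in SW.

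Groups of one transcript set can be compared across the labels instead. In the first set, IT_HLC against SW_LLW, 4 genes were called, BCAT2 higher (5.09 ± 0.56) and ASN1 (-2.36 ± 0.82, adjusted p = 0.0276), DIN10 (-1.71 ± 0.48, adjusted p = 0.00752) and AKINBETA1 (-2.12 ± 0.28) lower, where 41.3% of all genes were called (20.5% higher, 20.8% lower). Without replicate 3 of IT_HLC, SEN1 (-2.27), DIN4 (-1.38) and TPS8 (-0.90) were called lower as well and DIN10 was at -2.62, while ASN1 was not called (-2.26, adjusted p = 0.0705). The ASN1 call was also lost without replicate 1 or 3 of SW_LLW or replicate 1 of IT_HLC, with adjusted p from 0.0799 to 0.103, and fitted on these 2 groups alone ASN1 (adjusted p = 0.0724) and DIN10 (0.0678) were not called. In the second set, SW_HLC against IT_LLW, all 9 genes were called, 1 higher and 8 lower, where 46.3% of all genes were called (24.0% higher, 22.3% lower). There ASN1 fell 217-fold (-7.76 ± 0.93), DIN10 17.3-fold (-4.11 ± 0.51) and SEN1 16.7-fold (-4.06 ± 0.65). AKINBETA1 fell 7.45-fold, DIN4 3.88-fold and MCCA 3.72-fold, and BCAT2 rose 9.31-fold. The ASN1 value rests on 2 to 6 counts in SW_HLC, and was -8.16 with 1 subtracted from every count. ASN1, DIN10, AKINBETA1 and BCAT2 thus moved in the same direction in both sets. Whether the changes differed between the sets was not tested.

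Averaged over both light levels and labels, cool growth went with lower levels of 8 genes and a higher level of BCAT2, and all 9 were called, where 56.4% of all genes were called (30.4% higher, 26.1% lower). SEN1 was 5.26-fold lower (-2.39 ± 0.31), DIN10 4.86-fold (-2.28 ± 0.24), ASN1 4.48-fold (-2.16 ± 0.39), AKINBETA1 2.59-fold and DIN4 2.10-fold. MCCA, TPS8 and IVD were 1.81-fold, 1.70-fold and 1.46-fold lower, and BCAT2 was 9.14-fold higher (3.19 ± 0.28). All 9 were called without replicate 3 of IT_HLC too, with SEN1 at -2.81 and DIN10 at -2.51. High light, averaged in the same way, was followed by fewer calls, 1 higher and 4 lower, where 48.3% of all genes were called (22.6% higher, 25.7% lower). ASN1 was 7.47-fold lower (-2.90 ± 0.39, adjusted p = 5.85e-06), AKINBETA1 2.19-fold lower (-1.13 ± 0.14) and BCAT2 1.95-fold higher (0.96 ± 0.29). DIN10 (-0.63, adjusted p = 0.0292) and TPS8 (-0.39, adjusted p = 0.0333) were also called lower. DIN10 lost its call in 7 and TPS8 in 9 of the 24 fits that left out 1 library. SEN1 (0.07), MCCA (0.04), IVD (0.11) and DIN4 (-0.37) were not called. Without replicate 3 of IT_HLC the same 5 were called, DIN10 at -0.86, and SEN1 changed sign but was not called (-0.35).

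These means are balanced over the library code series but not over the transcript sets, since 3 of the 4 warm groups and 3 of the 4 high-light groups carry the second set. Within a code series light and temperature change together. In the number-coded libraries alone, HLW against LLC, DIN10 was higher by 1.66, SEN1 by 2.47, MCCA by 0.90 and DIN4 by 0.71 on the log2 scale and BCAT2 was at -2.22, all called, while ASN1 was not, at -0.73 (adjusted p = 0.160). The mean light value of DIN10, DIN4 and BCAT2 has the opposite sign to this, as do AKINBETA1 (0.25) and TPS8 (0.39), which were not called there. Read as temperature, LLC against HLW, the same libraries did not call IVD (-0.67, adjusted p = 0.0560), AKINBETA1 (-0.25, 0.111) or TPS8 (-0.39, 0.0766). ASN1 was there at 0.73, opposite in sign to its temperature mean and not called. The letter-coded libraries alone give the LLW to HLC change reported above.

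Some steps change the light level or the warm or cool setting but not both. Of these, 4 hold the label and the transcript set constant, although each crosses the code series. The step from LLC to HLC also lowers the leaf temperature by day from 16 °C to 14 °C, so it is not a change of light alone. In warm air, high light in IT (HLW against LLW) went with 2 calls, both lower, where 22.0% of all genes were called (10.8% higher, 11.2% lower). These were ASN1 (-2.77 ± 0.64, adjusted p = 0.00421) and AKINBETA1 (-0.91 ± 0.27, adjusted p = 0.0185), the latter not called without replicate 2 or 3 of IT_LLW or replicate 3 of IT_HLW (adjusted p from 0.0508 to 0.0744). DIN10 (-0.98 ± 0.46), MCCA (-0.60 ± 0.22) and BCAT2 (0.26 ± 0.59) were not called. MCCA gained the call in the DESeq2 test (adjusted p = 0.0439), with DESeq2 size factors (0.0494), without replicate 1 of IT_LLW (0.00812) and without replicate 2 of IT_HLW (0.0359), and DIN10 on these 2 groups alone (0.0218). In cool air, high light in IT (HLC against LLC) went with 8 calls, 1 higher and 7 lower, where 40.1% of all genes were called (20.6% higher, 19.5% lower). DIN10 fell 15.9-fold (-3.99 ± 0.52), ASN1 14.4-fold (-3.85 ± 0.79), SEN1 8.79-fold (-3.14 ± 0.66), AKINBETA1 5.15-fold, DIN4 4.55-fold and TPS8 2.05-fold, and BCAT2 rose 8.68-fold. Without replicate 3 of IT_HLC the same 8 were called, with DIN10 at -4.90 and SEN1 at -4.82. MCCA (-0.71 ± 0.23) was not called without replicate 1 of IT_LLC (adjusted p = 0.103) or replicate 2 of IT_HLC (adjusted p = 0.0864), and TPS8 not on these 2 groups alone (0.0987).

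On cooling in low light in SW (LLC against LLW) 4 genes were higher and 1 lower, where 40.2% of all genes were called (21.1% higher, 19.1% lower). ASN1 rose 5.83-fold (2.54 ± 0.66, adjusted p = 0.00465), BCAT2 rose 5.27-fold (2.40 ± 0.55), MCCA 1.83-fold (0.87 ± 0.23) and DIN4 2.50-fold (1.32 ± 0.41). The call of DIN4 was lost without replicate 1 of SW_LLC (adjusted p = 0.0980). AKINBETA1 fell by 0.82 ± 0.27 (adjusted p = 0.0197), and this call was lost without replicate 1 of SW_LLW (0.0532) or replicate 3 of SW_LLC (0.0896). SEN1 was not called at 1.59 ± 0.63 (adjusted p = 0.0509), but was called higher in the DESeq2 test (0.0348), with DESeq2 size factors (0.0459), without organelle genes (0.0454), on these 2 groups alone (0.0163) and without replicate 2 of SW_LLC (0.0300).

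Cooling in high light in SW (HLC against HLW) went with a higher level of BCAT2 and lower levels of 7 genes, where 40.7% of all genes were called (22.9% higher, 17.8% lower). ASN1 fell 41.6-fold (-5.38 ± 0.95), SEN1 4.45-fold (-2.15 ± 0.60), DIN4 2.74-fold (-1.45 ± 0.40), DIN10 2.66-fold (-1.41 ± 0.46), MCCA 2.11-fold, AKINBETA1 2.03-fold and TPS8 1.75-fold, and BCAT2 rose 19.7-fold (4.30 ± 0.59). Without replicate 2 of SW_HLW the count fell to 5, as DIN10 (-1.23, adjusted p = 0.0730), SEN1 (-1.43, adjusted p = 0.0747) and TPS8 (-0.61, adjusted p = 0.154) were not called. DIN10 was also lost without replicate 3 of SW_HLW or replicate 2 or 3 of SW_HLC (adjusted p from 0.0605 to 0.0840), and TPS8 without replicate 3 of SW_HLW or any SW_HLC library (0.0518 to 0.112). BCAT2 was thus called higher in both cooling steps in SW and in the step from LLC to HLC in IT, but not from LLW to HLW. ASN1 was called lower in both high-light steps in IT and on cooling in high light in SW, and higher on cooling in low light in SW.

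**Figure D3:**
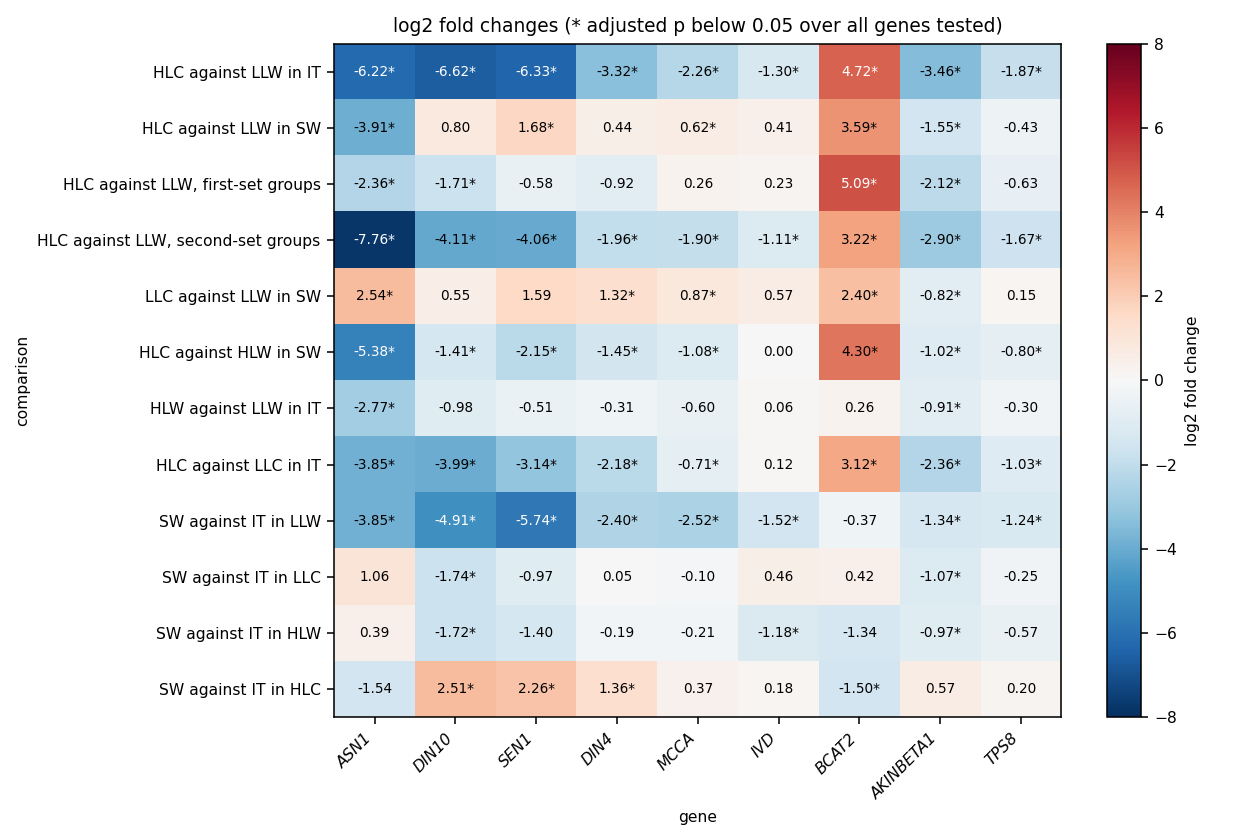
Log2 fold changes of the 9 genes in 12 comparisons, red higher and blue lower, with an asterisk where the adjusted p over all genes tested was below 0.05. BCAT2 was called higher in all 6 comparisons of HLC with LLW, LLC or HLW shown, where ASN1 and AKINBETA1 were called lower, and the row of SW against IT in LLW holds 8 asterisks, all lower.

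SW and IT were also compared within each regime. In LLC and HLW, where both labels carry the same transcript set, DIN10 and AKINBETA1 were lower in SW both times. In LLC these were the 2 genes called, DIN10 at -1.74 ± 0.47 (3.33-fold, adjusted p = 0.00571) and AKINBETA1 at -1.07 ± 0.27 (2.10-fold, adjusted p = 0.00358), where 42.8% of all genes were called (22.7% higher, 20.0% lower). In HLW they were at -1.72 ± 0.47 (adjusted p = 0.0107) and -0.97 ± 0.27 (adjusted p = 0.0122), and IVD was lower as well (-1.18 ± 0.32, adjusted p = 0.0111), where 24.4% of all genes were called (10.2% higher, 14.2% lower). Without replicate 1 of SW_HLW none of these 3 was called, at adjusted p from 0.0623 to 0.0702, and without replicate 2 of SW_HLW SEN1 was called as well (-2.12, adjusted p = 0.0267). IVD was also lost without replicate 1 of IT_HLW (0.105) or replicate 3 of SW_HLW (0.0596), and on these 2 groups alone (0.103). In LLC a fit on the 2 groups alone also called ASN1 (1.04) and IVD (0.44) higher.

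In LLW and HLC the sets differ between the labels. In LLW 8 of 9 were lower in SW, where 25.5% of all genes were called (13.0% higher, 12.5% lower). SEN1 was 53.5-fold lower (-5.74 ± 0.71), DIN10 30.0-fold (-4.91 ± 0.53), ASN1 14.4-fold (-3.85 ± 0.68), MCCA 5.74-fold, DIN4 5.28-fold, IVD 2.88-fold, AKINBETA1 2.54-fold and TPS8 2.37-fold, and only BCAT2 was not called (-0.37 ± 0.61). In HLC the counts were 3 higher and 1 lower in SW, where 24.4% of all genes were called (12.6% higher, 11.8% lower). DIN10 (2.51 ± 0.49), SEN1 (2.26 ± 0.65) and DIN4 (1.36 ± 0.45) were higher and BCAT2 (-1.50 ± 0.45) was lower. Without replicate 3 of IT_HLC the same 4 were called, with SEN1 at 3.95 and DIN10 at 3.42. Without replicate 2 of IT_HLC DIN10 alone was called, and without replicate 1 of SW_HLC 2 genes were, DIN10 and BCAT2. SEN1 was also lost without replicate 1 of IT_HLC (adjusted p = 0.0650), DIN4 without replicate 3 of SW_HLC (0.0878) and BCAT2 without replicate 2 of SW_HLC (0.0971). Fitted on the 2 HLC groups alone, none of the 4 was called (adjusted p from 0.0693 to 0.274). The LLW and HLC comparisons of labels use the same libraries as those of HLC with LLW, so they are not separate evidence.

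The other genes of these pathways did not move as one from LLW to HLC. Of the 15 tested other genes of branched-chain amino acid breakdown, 8 were called higher and 4 lower in the mean of both labels, where 28.5% of all genes tested were called higher and 27.3% lower. The median log2 fold change was 0.44, against 0.01 for all genes tested. In IT 5 were higher and 4 lower, and without replicate 3 of IT_HLC the counts were 8 and 4 in the mean and 3 and 5 in IT. MCCB, the partner subunit of MCCA in the same carboxylase, was lower by 0.73 ± 0.11 on the log2 scale, and BCE2, the E2 core of the dehydrogenase complex to which DIN4 belongs, by 1.30 ± 0.17. In IT both were lower, at -1.68 for MCCB and -1.90 for BCE2 (-1.79 and -1.83 without that replicate), whereas in SW MCCB was not called (0.22) and BCE2 was lower (-0.71). BCDH BETA1, the other E1 beta subunit, was higher in the mean (0.45) and not called in IT (0.24). BCKDH E1A1, an E1 alpha subunit, was not called in the mean (0.33). In IT it was called higher (1.55, and 1.92 without that replicate), opposite to DIN4 and BCE2. Its IT_HLC libraries held 18.5, 77.7 and 14.9 CPM in replicates 1 to 3. The lipoamide dehydrogenase mtLPD2 (1.12) and the methylmalonate semialdehyde dehydrogenase ALDH6B2 (0.62) were higher. BCAT1, the mitochondrial aminotransferase, was higher by 2.00, at a mean of 1.41 CPM in IT_LLW and 3.32 CPM in IT_HLC, and 1.25 CPM in SW_LLW and 8.76 CPM in SW_HLC. Its call in IT (1.21) was lost without replicate 3 of IT_HLC (0.71, adjusted p = 0.221), where the other 2 libraries averaged 2.32 CPM. Among the 14 genes of branched-chain amino acid synthesis, 5 were called higher and 2 lower (4 and 2 without that replicate), an overall share near that of all genes, with CSR1, the catalytic subunit of acetolactate synthase, at -1.22 and OMR1, threonine deaminase, at 1.09.

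Of the 14 tested other starvation-induced genes, 3 were called higher and 9 lower in the mean, with a median of -1.10, where 28.5% of all genes were called higher and 27.3% lower. In IT 2 were higher and 8 lower (median -1.12; all genes 28.6% and 26.0%), and in SW 4 higher and 3 lower (median 0.55; all genes 24.8% and 25.5%). With replicate 3 of IT_HLC left out the counts were 2 and 8 in the mean and 2 and 7 in IT. BXL1, a beta-xylosidase, held 1059 ± 153 CPM in IT_LLW and 3.64 ± 3.98 CPM in IT_HLC (SD, n = 3), against 19.6 CPM in SW_LLW and 49.2 CPM in SW_HLC. Without replicate 3 the IT_HLC mean of BXL1 was 1.34 CPM. PRODH1, which breaks down proline, fell by 3.75 in IT (-3.56 without that replicate) and was at 0.51 in SW, not called. STP1, a monosaccharide transporter, stood at 709 ± 137 CPM in IT_LLW, 41.8 ± 3.02 CPM in SW_LLW, and 79.1 CPM and 79.8 CPM in IT_HLC and SW_HLC, the former 65.5 CPM without replicate 3. GDH1, a glutamate dehydrogenase, was lower under both labels (-1.08 in IT, -1.22 without that replicate, and -1.60 in SW), and DRM2, a dormancy-associated gene, was higher under both (2.47 and 2.70).

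**Figure D4:**
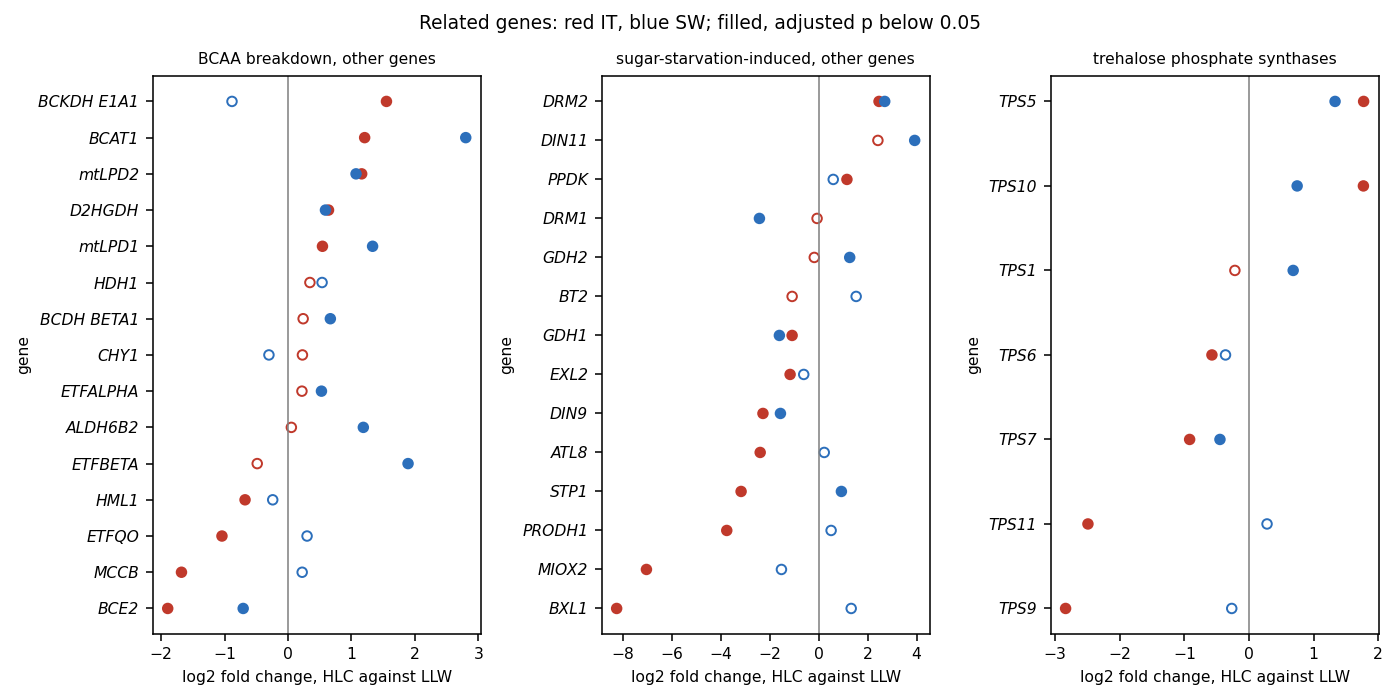
Log2 fold change of HLC against LLW for the tested genes of 3 lists, IT in red and SW in blue, with filled circles where the adjusted p was below 0.05. Most starvation genes of the middle panel lie left of 0 in IT; DIN9 in IT and MIOX2 in SW have all HLC libraries at the table's lowest value, so their plotted values are not bounds.

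The trehalose phosphate synthases divided. Of 7 genes 2 were higher in the mean and 4 lower, with and without replicate 3 of IT_HLC, where 28.5% of all genes were called higher and 27.3% lower. TPS9 (-1.55) and TPS11 (-1.11) fell in the mean and in IT. In SW TPS9 (-0.27) and TPS11 (0.28) were not called, as TPS8 was not in the fit of all groups. TPS5 (1.55) and TPS10 (1.26) rose under both labels, TPS7 fell under both (mean -0.68), and TPS6 was at -0.47 in the mean. Of 13 tested genes for SnRK1 and its bZIP partners, 4 were called higher and 3 lower, near the share of all genes (55.8% called). Without that replicate 5 were higher, bZIP44 having passed the filter, and 3 lower. AKINBETA2, another beta subunit, was higher by 0.59 ± 0.10 in the mean, against the fall of AKINBETA1. AKINBETA3 was not called in the mean (-0.30), but was called lower in IT (-0.76 with and without that replicate). The bZIP transcription factors did not move as one. bZIP1 was lower under both labels (mean -2.54 ± 0.19). bZIP63, a target of SnRK1, was lower in IT (-2.94, and -3.67 without that replicate) and at -0.01 in SW. In contrast, bZIP11 was called higher in the mean (1.33) and in IT (2.12, and 2.40 without that replicate). Its IT_HLC libraries held 1.92, 5.28 and 1.66 CPM, so replicate 2 was the highest. bZIP2 was at the table's lowest value in all 6 HLC libraries, and in LLW it had a mean of 1.76 ± 2.92 CPM in IT and 1.85 ± 1.55 CPM in SW (SD, n = 3).

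Of 9 tested genes for asparagine and ammonium, 2 were called higher and 1 lower, where 28.5% of all genes were called higher and 27.3% lower. The 1 lower gene was GDH1 (-1.34), which is also in the starvation list above. Neither other asparagine synthetase shared the fall of ASN1 in the mean, with ASN2 at 0.37 and ASN3 at 0.25, both not called, though ASN3 was lower in IT (-0.99) and higher in SW (1.49). The glutamine synthetase GLN1-1 was higher by 1.67 ± 0.21 and the glutamate synthase GLT1 by 1.04 ± 0.15. Genes of chlorophyll breakdown and senescence gave 3 higher and 2 lower of 9 tested. NYC1 (1.82) and PAO (1.12), which degrade chlorophyll, and NYE1 (0.65) were higher while the senescence regulator WRKY53 was lower (-3.23). Of the 9 ATG8 genes of autophagy 2 were higher and 1 lower, ATG8E at -1.76, ATG8D at 1.17 and ATG8F at 0.35. When replicate 3 of IT_HLC was left out, the counts of the asparagine and ATG8 lists were unchanged, and that of the senescence list was 3 higher and 1 lower. Apart from BCAT1 in IT, each call given above for a named gene of these lists in the mean or in IT was kept without that replicate. The totals called in these lists, 3, 5 and 3 of 9, compare with 55.8% of all genes.

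A search among 6959 or 6960 genes of mean log2 CPM of at least 3 for those whose 8 group means followed each gene's own gave the following nearest genes, as a description of 8 points that share the groups. SEN1 was followed most closely by TPS11 (Pearson r 0.99) and DIN10 (0.98). Next to DIN10, after SEN1, came BGAL1, a beta-galactosidase (0.97). MCCA was followed by STP1, MCCB and SDP1, a lipase of oil breakdown, each at 0.97. The nearest genes were CLC-A (0.99) for DIN4, GPX1 (0.98) for ASN1, AT2G44140 (0.99) for TPS8, RPL4 (0.97) for AKINBETA1, AT2G32160 (0.97) for IVD and AT1G76520 (0.96) for BCAT2. AT5G47390 was among the 3 nearest genes of DIN10, SEN1 and TPS8.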

How the data were processed

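Whole-number counts per gene and library were deposited by the authors without normalisation or pooling. The lowest value is 1; whether 1 was added to all counts or put for 0 was not settled. The submitters' processing notes name HISAT, StringTie, DESeq2 and TAIR10, with versions, roles and strand use not given in the sources used here. Mapping both ecotypes to one reference can lower counts of diverged transcripts, and reads of close copies (the TPS and ATG8 families, mtLPD1 and mtLPD2) may be shared. Symbols came by locus from RefSeq, TAIR10.1.

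All 24 libraries entered 1 fit of 8 groups in edgeR 4.0.16 (R 4.3.3; quasi-likelihood, robust, TMM), after filterByExpr with a count of 10 and a total of 15, which left 17709 genes. Benjamini-Hochberg adjustment ran over all of these, and "called" means an adjusted p below 0.05. SE is the absolute log2 fold change over the root of F, and CPM refer to the TMM-scaled sum of tested genes. The code was tested on simulated data. Alternatives were DESeq2 1.42.0, its size factors, no filter, 1 subtracted, no organelle genes, only the groups compared, 1 code series, a replicate block and leaving out each library. Those for the other gene lists were chosen after seeing the data. Same-numbered libraries did not deviate together (median r -0.0016 over 84 pairs), so numbers were not paired. No 2 libraries of the same group agreed within sampling noise, and pairs from different groups were not compared in this way.

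Members and lists were chosen with earlier results of these data known. The text names all members, up to 4 genes per list by smallest adjusted p for HLC against LLW, and relatives of the members. STP1 and bZIP11 were added after their values were seen. In the lists 2 symbols were corrected by locus. Sequences are not shown.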

Additional observations from a re-analysis of the deposited data

Results flagged for a closer look

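The change from LLW to HLC differed between the labels for 7 genes by the interaction test of edgeR (SW minus IT, log2 scale). It was 8.01 for SEN1 (adjusted p = 2.3e-06), 7.42 for DIN10 (1.56e-07), 3.76 for DIN4 (7.45e-05), 2.89 for MCCA (1.05e-06), 1.91 for AKINBETA1 (0.00071), 1.71 for IVD (0.00614) and 1.44 for TPS8 (0.00972), where 37.1% of all genes tested passed. For SEN1 all 3 libraries of IT_HLC were below all 3 of IT_LLW, and all 3 of SW_HLC were above all 3 of SW_LLW. The labels and the transcript sets cannot be told apart in this difference.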

How the results depend on the processing

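Of 2321 recomputed values of single genes, 2186 kept their direction and side of the threshold, 72 lost the call, 23 gained it and 40 changed sign. The number of members called stayed at 9 for HLC against LLW in IT and in the second set, at 7 for its label difference and at 8 for SW against IT in LLW under all alternatives run, and was 8 to 9 for HLC against LLW in the mean. Leaving out 1 library gave 3 to 5 genes for HLC against LLW in SW, 3 to 6 for the first set, 3 to 5 for light, 4 to 6 for LLC against LLW in SW, 1 to 3 for HLW against LLW in IT, 5 to 8 for HLC against HLW in SW, 0 to 4 for SW against IT in HLW and 1 to 4 for SW against IT in HLC. The light count of 5 became 3 without replicate 2 of IT_LLW or replicate 1 of SW_LLW, IT_LLC, SW_LLC or SW_HLW. Fitting only the groups compared gave 2 genes in the first set, 6 for HLC against LLW in SW, 4 for SW against IT in LLC and 0 for SW against IT in HLC. The letter-coded libraries alone called 9 genes for light, and the number-coded alone 5 for temperature. The causes were not tested. BGLU30 was not detectable at this depth, and ASN1 was near the table's lowest value in HLC. With 1 subtracted from every count, HLC against LLW for ASN1 was -5.31 in the mean, -6.34 in IT and -4.29 in SW. It was -2.46 in the first set and -8.16 in the second. HLC against LLC in IT was then -3.96, and HLC against HLW in SW was -5.77. These ASN1 calls were all kept.

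Changed signs were as follows, and their cause was not tested. For light, the number-coded libraries alone gave DIN10 1.66, DIN4 0.71, BCAT2 -2.22, AKINBETA1 0.25 and TPS8 0.39, and the letter-coded alone SEN1 -2.32, MCCA -0.82 and IVD -0.44. For temperature the number-coded alone gave ASN1 0.73. IVD in HLC against HLW in SW was -0.036 with DESeq2 size factors and in the DESeq2 test, -0.0016 with no filter, -0.0062 without organelle genes and -0.055 on only the groups compared. Leaving out 1 library gave, for light, SEN1 -0.35 to 0.19, MCCA -0.024 to 0.099 and IVD -0.012 to 0.18. IVD ran from -0.090 to 0.26 for HLC against LLC in IT, -0.42 to 0.34 for HLW against LLW in IT and -0.22 to 0.47 for HLC against HLW in SW, and BCAT2 from -0.36 to 0.72 for HLW against LLW in IT. TPS8 ran from -0.011 to 0.32 for LLC against LLW in SW. For SW against IT the ranges were -0.30 to 0.22 (DIN4) and -0.20 to 0.061 (MCCA) in LLC, -0.26 to 1.04 (ASN1) and -0.41 to 0.00097 (MCCA) in HLW, -0.77 to 0.091 (BCAT2) in LLW and -0.17 to 0.47 (TPS8) in HLC. No gene in these ranges was called in the comparison its range belongs to. With a replicate block the counts of members called did not change in any comparison (8 for HLC against LLW in the mean), and over all genes 9768 were called there against 9881; same-numbered samples share only a number, and 8 of the 24 libraries correlated best with their own number.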
